A study of Homo sapiens with 14 samples.

Results

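β-like cells derived from expandable pancreatic progenitors (ePP-β) were set against the expandable pancreatic progenitors (ePPs) they were made from, to describe which gene programmes were gained and which were lost besides the hormone, β cell and cell cycle genes. The members were chosen by sample title and comprised 6 of the 14 RNA sequencing libraries, with 2 libraries of ePP-β, 2 of ePPs at passage 9 (ePP-P9) and 2 of ePPs at passage 21 (ePP-P21). All cells came from the MEL1 human embryonic stem cell line in its INS GFP/W form, in which one INS allele carries a GFP reporter. ePPs were grown on feeder cells with EGF, bFGF, the TGFβ receptor inhibitor 616452 and the BET inhibitor I-BET151. ePP-β were taken through a staged protocol without I-BET151, first with zinc sulfate, heparin, 616452, the thyroid hormone T3, the BMP receptor inhibitor LDN-193189, the γ-secretase inhibitor compound E, vitamin C and forskolin, then with zinc sulfate, heparin, 616452, T3, N-acetyl cysteine, Trolox and vitamin C. The medium, the cell state and the passage history differ together between the groups and cannot be told apart, and which passage gave the ePP-β libraries was not stated. The 6 libraries came from batch 2 and from a single cell line, and the labels do not say whether the libraries of a group were separate cultures, so a p-value measures the spread between these libraries, which may be technical.

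A pancreatic progenitor is a dividing epithelial cell that stays in that state under growth factor, Notch and BMP signals and that holds onto a basement membrane. On becoming an endocrine cell it leaves the cell cycle and acquires machinery that neurons also use, namely dense-core granules, ion channels, regulated exocytosis and a neuronal type of cytoskeleton. Islet cells also carry a primary cilium, and the related serotonin-producing enterochromaffin cells of the gut share much of the endocrine programme.

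The deposited unit is TPM, the share of a library that each gene takes after correction for transcript length. Library totals of the listed genes ran from 908685 to 950752 TPM. Read depth is unknown for TPM values, so no counting interval is given. The labels were checked against their defining markers. INS did not exceed 0.0104 TPM in any ePP library and reached 10916 and 17374 TPM in ePP-β, and SLC30A8 and ABCC8 rose with it. IAPP stayed at 0.463 and 0.538 TPM in ePP-β and MAFA at 2.05 and 1.75 TPM, so these β cell markers were close to absent. The glucagon gene GCG was at 14107 and 13360 TPM in ePP-β, a level like that of INS. In the ePP libraries PDX1 was at 124 to 134 TPM and NKX6-1 at 176 to 213 TPM. In ePP-β PDX1 was lower, at 53.8 and 54.6 TPM (log2 fold change -1.25). NKX6-1 was at 143 and 138 TPM there and was not called. ePP-β replicate 2 stood apart in the mitochondrial pseudogene MTATP8P1, at 36310 TPM or 3.85% of its total against 1.67 to 3.88 TPM in the other 5 libraries. The ePP-β libraries also differed from each other in hypoxia-associated, glycolysis and motile cilium genes, as given below. The 37 mitochondrial genes all had an exact 0, so such a value is reported only as listed at 0. In such bulk libraries fewer cells of a type and less RNA per cell cannot be told apart.

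Many more genes were gained from a near-silent state than were lost to one. Among 18076 genes that reached 1 TPM in 2 or more libraries, 3237 (17.9%) were higher and 1783 (9.86%) lower in ePP-β, at a Benjamini-Hochberg adjusted p under 0.05 in limma's moderated test with a log2 fold change beyond 1 on the log2(TPM + 1) scale. In the text a gene "rose" or "fell" only when it passed both thresholds. Beyond a log2 fold change of 3, 663 genes were higher and 33 lower. Of the higher genes, 1528 were under 1 TPM in all 4 ePP libraries, while 200 of the lower genes were under 1 TPM in both ePP-β libraries. The median of all tested genes was -0.03. Quantile normalization shifted that median to -0.19 and turned the split around, to 2592 higher and 2866 lower genes, and median centring shifted it to -0.17. Groups did not overlap in 63.8% of tested genes. Without ePP-β replicate 1 or 2 and with the tested genes held, 3183 and 3002 genes were higher and 1592 and 1856 lower.

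The filter admits genes that are high in a single group. Through the ePP-β libraries alone 2005 genes passed, of which 1709 were higher. Another 768 tested genes were under 1 TPM in both ePP-β libraries. Among the 16071 genes that did not pass through ePP-β alone, 9.51% were higher and 11.1% lower, with a median of -0.14. These still hold the 768, which favours falls. Where members of a list below had passed through ePP-β alone, the result is also given for the others. They are called the remaining members, to be read against 9.51%. Falls have no matching correction. In all, 56 lists were described. Lists with medians above 2 were granule, ion channel, transmitter, neuroendocrine, enterochromaffin, hepatic, gut, acinar, immune and interferon genes. Over the remaining members alone the medians were 4.75 for granule, 3.17 for immune, 2.92 for hepatic, 2.07 for gut and 2.02 for interferon genes, but 1.21 for enterochromaffin, 0.82 for transmitter, 0.60 for ion channel, 0.56 for neuroendocrine and 0.07 for acinar genes. The lists with the lowest medians were pluripotency, basement membrane, p53 target and growth factor feedback genes.

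**Figure D1:**
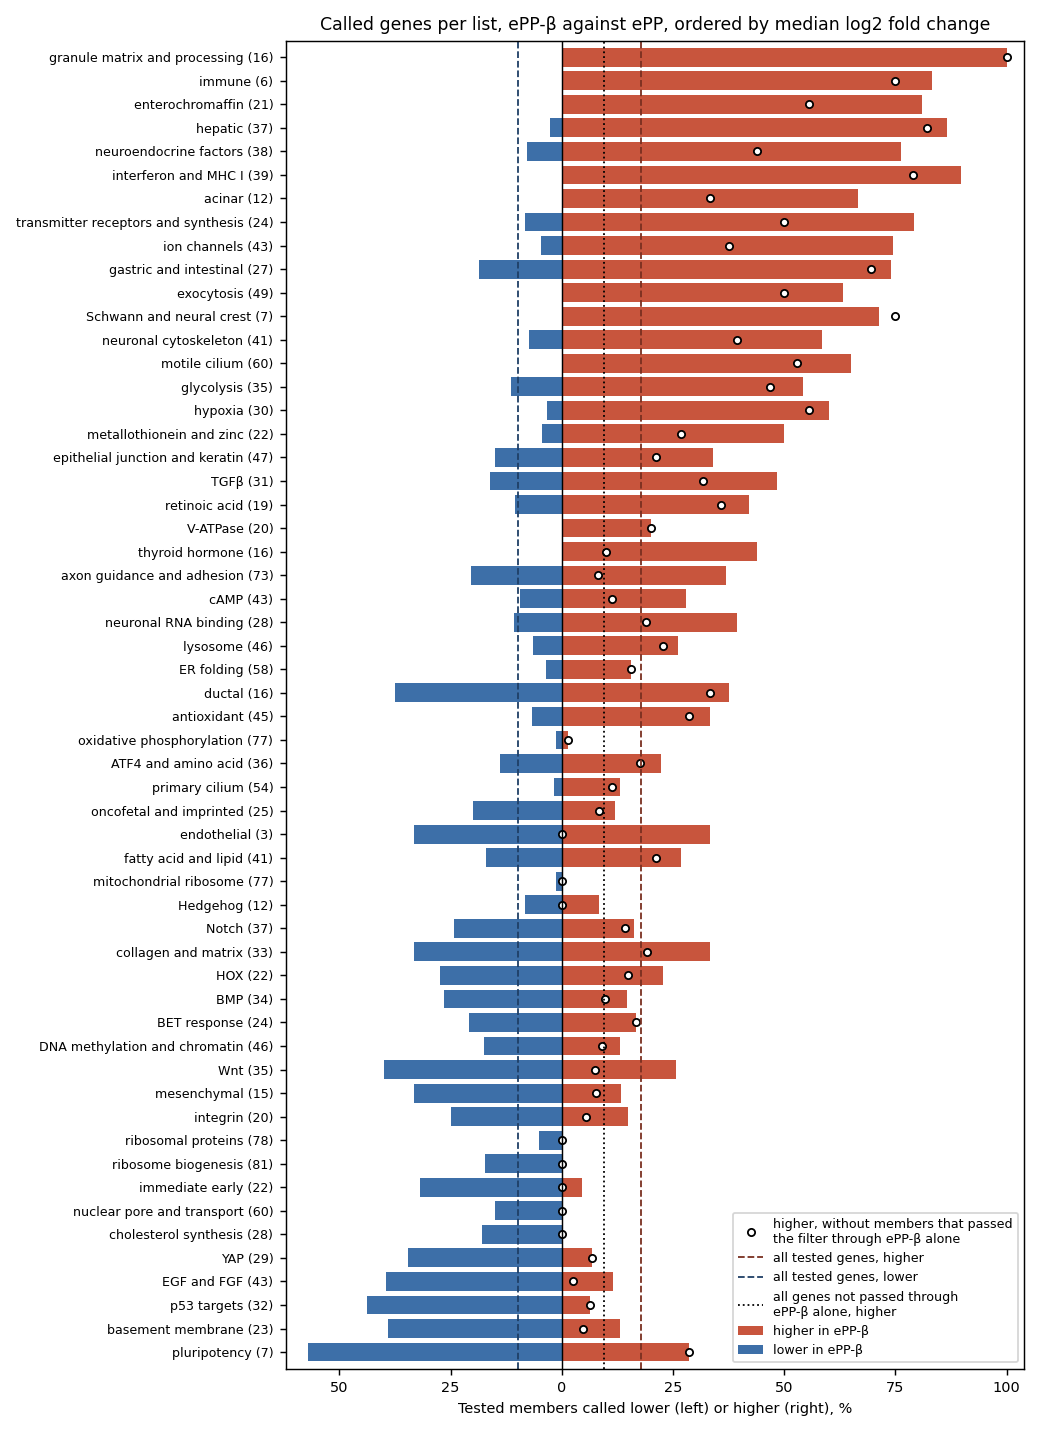
Percentage of the tested members of each gene list that were called higher (right, red) or lower (left, blue) in ePP-β against ePP, with the number of tested members after each name. Open circles give the percentage higher without members that passed the filter through ePP-β alone, and dashed and dotted lines give the 17.9%, 9.86% and 9.51% of the backgrounds; granule, interferon and hepatic genes reach 100%, 89.7% and 86.5% higher, and pluripotency and p53 target genes 57.1% and 43.8% lower.

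The granule content genes were gained as a whole and part of the exocytosis machinery with them. All 16 listed genes of the granule matrix and prohormone processing rose, with a median log2 fold change of 5.89, and all 7 remaining members were among them. Of 60 exocytosis genes 49 were tested, 31 rose and none fell, with a median of 1.76, and 16 of 32 remaining members rose. SCG2, a granin of the granule core, was at 1.03, 1.83, 0.782 and 1.25 TPM in the ePP libraries (in the order ePP-P9 replicates 1 and 2, ePP-P21 replicates 1 and 2, which is kept throughout) and at 974 and 1247 TPM in ePP-β. SYT13, an atypical synaptotagmin of endocrine cells, was at 0.152, 0.119, 0.0405 and 0.183 TPM in ePPs and at 163 and 142 TPM in ePP-β. Both genes went from barely detected in all 4 ePP libraries to high in both ePP-β libraries, with log2 fold changes of 8.98 ± 0.20 and 7.10 ± 0.16 (SE here and below, adjusted p = 3.76e-06 for each). SCG3, another granin, rose by 8.17, RAB26, a GTPase of secretory vesicles, by 6.58, SYT4, a synaptotagmin, by 6.57 and the membrane fusion protein SNAP25 by 3.37 on the log2 scale.

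The proton pump that acidifies granules moved less. Of 20 tested V-ATPase subunits, all of them remaining members, 4 rose (20%, against 9.51%) and none fell, and the median was 0.57. ATP6V1G2, a subunit typical of neurons, was at 0.774, 0.481, 1.71 and 1.72 TPM in ePPs and at 11.7 and 11 TPM in ePP-β, a log2 fold change of 2.56 ± 0.16. The catalytic subunit ATP6V1A rose from 36.8 ± 3.24 (SD, n = 4) to 88.7 ± 5.13 TPM (SD, n = 2). ATP6V1E1 also rose, by 1.34, but lost its call without the filter, against ePP-P21 alone and without either ePP-β library.

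Genes of electrical activity were largely new to ePP-β. Of 71 ion channel genes 43 were tested, 32 rose and 2 fell, and the median was 2.24. Of the tested members 27 passed through ePP-β alone, and 6 of the remaining 16 rose. KCNK16, a potassium leak channel, was at 0.0477 and 0.0441 TPM in ePP-P9, was listed at 0 in both ePP-P21 libraries and was at 258 and 278 TPM in ePP-β. Its relative KCNK17 was at 0.17 ± 0.125 TPM in ePPs and 127 ± 16.2 TPM in ePP-β. The step was of the same order in both genes, with log2 fold changes of 8.04 and 6.77. SCN3A, a voltage-gated sodium channel, rose by 4.36 and CACNA1A, the pore of P/Q-type calcium channels, by 3.23. KCNK5, a channel of the same leak family, fell from 15.3, 15.4, 23.1 and 19.2 TPM to 8.07 and 7.53 TPM, a log2 fold change of -1.11 that lost its call against ePP-P9 alone.

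Few endoplasmic reticulum genes changed, though the share that rose was above the background. Of 58 tested folding and unfolded protein response genes 9 rose (15.5%, against 9.51%) and 2 fell (3.45%, against 9.86% of all tested genes). None of the tested members had passed through ePP-β alone, and the median was 0.20. ERO1B, an oxidase of the endoplasmic reticulum abundant in islets, was at 1.72, 2.33, 2.76 and 2.28 TPM in ePPs and at 291 and 241 TPM in ePP-β. XBP1, a transcription factor that expands the secretory pathway, rose from 80.1 ± 5.69 to 367 ± 4.79 TPM, and the signal peptidase subunit SEC11C by 2.37 on the log2 scale. The disulfide isomerase PDIA4 and the chaperone HYOU1 were the members that fell, with log2 fold changes of -1.53 and -1.10, and the chaperone HSPA5 had -0.45 (adjusted p = 0.00449) and did not pass. HYOU1 lost its call against ePP-P21 alone and without ePP-β replicate 2.

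Part of the neuronal cytoskeleton genes rose in ePP-β. Of 41 tested, 24 rose and 3 fell (median 1.41), and 11 of 28 remaining members rose (median 0.31). The summed level of the list was 3621 to 4436 TPM in ePPs and 5696 to 6088 TPM in ePP-β. STMN2, a microtubule regulator of growing axons, was at 0.0603, 0.107, 2.14 and 1.53 TPM in ePPs and at 1056 and 1073 TPM in ePP-β. NEFM, a neurofilament subunit, was at 2.95, 2.92, 2.69 and 2.61 TPM in ePPs and at 468 and 382 TPM in ePP-β. ePPs thus held NEFM at a low, even level. STMN2 was higher in the ePP-P21 libraries, a difference between passages that did not pass (limma, adjusted p = 0.0681). Both genes lay far above these levels in each ePP-β library (log2 fold changes of 6.80 ± 0.12 and 9.25 ± 0.13, adjusted p = 2.59e-06 and 1.78e-06). The tubulin TUBA4A rose by 5.84. MARCKSL1, an actin regulator, and DPYSL5, a collapsin response mediator, fell by 1.37 and 1.25.

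Transmitter genes were mostly silent in both groups. Of 63 listed receptor and synthesis genes 24 were tested, 19 rose and 2 fell, with a median of 2.35, and 5 of 10 remaining members rose. CHRNA3, a nicotinic acetylcholine receptor subunit, was at 0.488, 0.3, 0.346 and 0.264 TPM in ePPs and at 116 and 73.9 TPM in ePP-β. GAD2, which makes GABA and is a known islet autoantigen, was at 0.0277 ± 0.0318 TPM in ePPs and 41.9 ± 1.43 TPM in ePP-β. The AMPA receptor subunit GRIA4 rose by 5.43 log2 units, close to the 5.39 of GAD2 and the 6.12 of CHRNA3.

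Axon guidance genes moved in both directions. Of 73 tested, 27 rose and 15 fell, 24 had passed through ePP-β alone, and only 4 of the remaining 49 rose (8.16%). The median of 0.37 was -0.22 with a filter of 5 TPM, and over the remaining members it was -0.52. PLXNC1, a semaphorin receptor, rose by 5.14 and SEMA3A, a secreted guidance cue, by 4.28. The cell adhesion gene NFASC rose to 31.4 and 11.1 TPM, so its ePP-β libraries differed from each other. The receptors UNC5B, EPHB4 and EPHA2 fell by 3.11, 2.47 and 2.02 on the log2 scale. EPHB4, an ephrin receptor of epithelium and vessels, was at 73.1, 70.8, 75.7 and 76.1 TPM in ePPs and at 12.6 and 12.4 TPM in ePP-β.

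A minority of the neuronal RNA-binding and repressor genes changed. Of 28 tested, 11 rose and 3 fell, with a median of 0.25, and 4 of 21 remaining members rose, with a median of 0.00. CELF3 and ELAVL2, neuronal RNA-binding proteins, rose by 4.49 and 4.18. PTBP1, which represses neuronal exons in other cells, was at 335, 329, 277 and 307 TPM in ePPs and at 124 and 113 TPM in ePP-β. REST, a transcriptional repressor of neuronal genes outside neurons, was at 15.4, 16.7, 16.8 and 23.2 TPM in ePPs and at 5.84 and 6.32 TPM in ePP-β. Each of the 4 ePP libraries lay above both ePP-β libraries for PTBP1 and REST (log2 fold changes of -1.39 ± 0.07 and -1.41 ± 0.16, adjusted p = 4.17e-05 and 0.000623).

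Neuroendocrine transcription factors and the serotonin programme were gained together. Of 59 neuroendocrine factors 38 were tested, 29 rose and 3 fell (median 2.67), and 7 of 16 remaining members rose. NEUROD1, a factor of endocrine cells and neurons, rose by 8.23 and INSM1, a zinc finger factor of the same cells, by 7.41. SCRT1, a neuronal repressor, was at 0.037 TPM or less in ePPs and at 4.84 and 5.88 TPM in ePP-β. POU3F2, a POU factor of neural progenitors, ran against the group, at 55.2, 54, 36.2 and 44.5 TPM in ePPs and 5.04 and 3.83 TPM in ePP-β, and SOX4 fell by 1.39.

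Of 27 enterochromaffin genes 21 were tested, 17 rose and none fell, with a median of 3.13, and 5 of 9 remaining members rose. TPH1, which carries out the first step of serotonin synthesis, was at 0.0199, 0.201, 0.233 and 0.122 TPM in ePPs and at 140 and 245 TPM in ePP-β. FEV, the transcription factor of serotonin-producing cells, was at 0.252, 0.505, 0.0706 and 0.19 TPM in ePPs and at 317 and 288 TPM in ePP-β. LMX1A, which acts beside FEV in such cells, was at 0.0537 TPM in a single ePP library, was listed at 0 in the other 3, and was at 140 and 146 TPM in ePP-β. All were near 0 in ePPs and above 100 TPM in both ePP-β libraries, with log2 fold changes of 7.35 ± 0.25, 7.93 ± 0.15 and 7.15 ± 0.14. SLC18A1, which loads serotonin into vesicles, rose by 4.93.

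**Figure D2:**
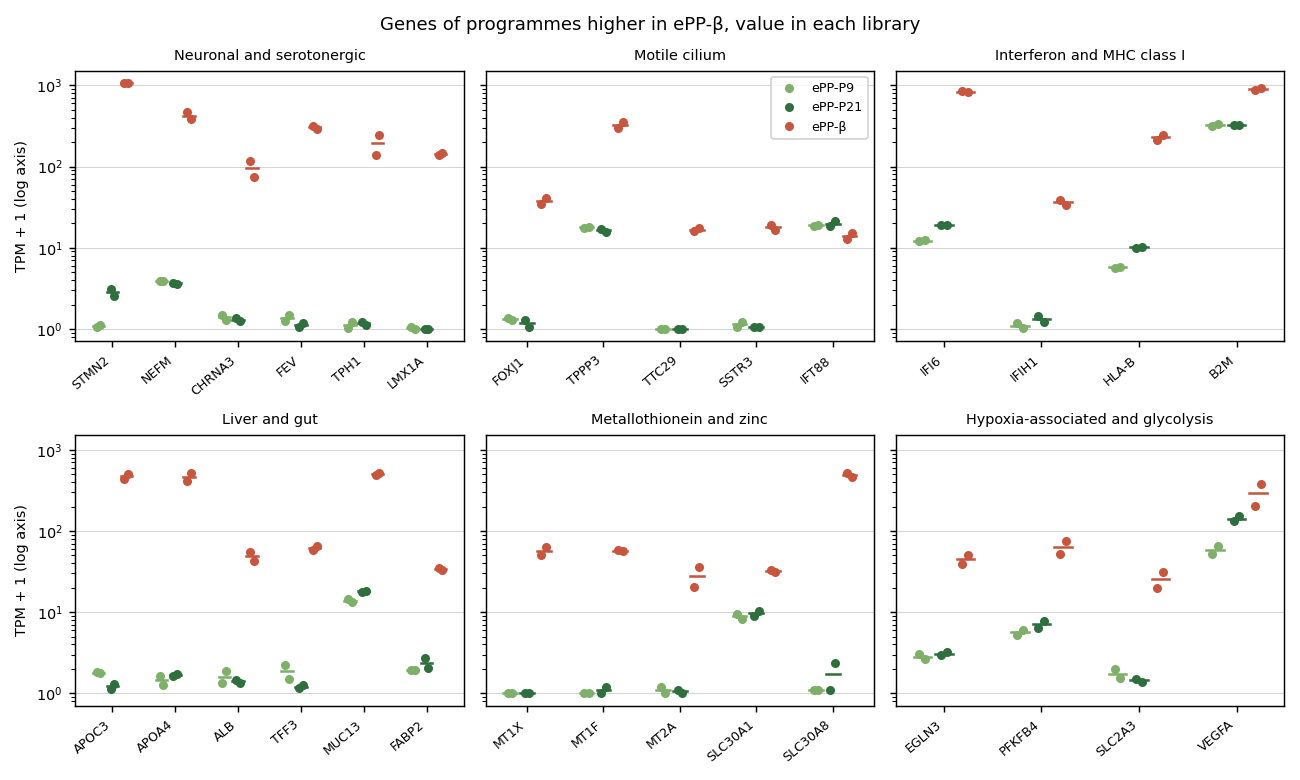
TPM + 1 on a log axis in each of the 6 libraries for genes of 6 programmes, with points for libraries and bars for group means (ePP-P9 light green, ePP-P21 dark green, ePP-β red, n = 2 each). The ePP-β points lie above all ePP points for every gene drawn except IFT88, which was not called (log2 fold change -0.45). Lack of overlap was required of the drawn genes that were not list anchors. The ePP-β libraries lie apart from each other for VEGFA.

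Motile cilium genes rose without a matching rise of the primary cilium. Of 90 motile cilium genes 60 were tested, 39 rose and none fell, with a median of 1.34, and 18 of 34 remaining members rose (52.9%). The primary cilium list of 59 had 54 tested members, of which 7 rose and 1 fell (6 of 53 remaining members rose), and its median of 0.00 changed sign with the setting. FOXJ1, the master regulator of motile cilia, was at 0.383, 0.287, 0.297 and 0.0591 TPM in ePPs and at 33.6 and 39.9 TPM in ePP-β. TTC29, a dynein-associated axonemal protein, was listed at 0 in the 4 ePP libraries and was at 15.1 and 16.4 TPM in ePP-β. TPPP3, a tubulin-binding protein of ciliated cells, was at 16.5, 17.1, 16 and 14.8 TPM in ePPs and at 296 and 355 TPM in ePP-β. FOXJ1 and TTC29 thus appeared from almost nothing (log2 fold changes of 4.91 ± 0.18 and 4.06 ± 0.14), while TPPP3 was already present in ePPs and rose by 4.25 ± 0.10. The axonemal set was incomplete. DNAI1, a dynein intermediate chain that motile cilia need, reached only 0.236 and 3.44 TPM in ePP-β and did not pass the filter, 30 listed genes were not tested, and 23 of the 89 listed genes found in the annotation were under 1 TPM in both ePP-β libraries. The summed level of the list was 149 to 196 TPM in the ePP libraries and 811 to 1016 TPM in ePP-β, and 50 of its 60 tested members were higher in ePP-β replicate 2 than in replicate 1, by a median of 0.32 log2 units. With a filter of 5 TPM 25 members rose.

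Among primary cilium genes, IFT46, of the intraflagellar transport complex that also builds motile cilia, rose by 3.15, and CC2D2A, of the transition zone, by 2.19. SSTR3, the somatostatin receptor that resides in the cilium of neurons and islet cells, was at 0.0439, 0.23, 0.0501 and 0.0549 TPM in ePPs and at 18.2 and 15.5 TPM in ePP-β. IFT88, a core transport subunit, was at 17.7, 18.2, 17.3 and 20.1 TPM in ePPs and at 11.9 and 14.3 TPM in ePP-β, a log2 fold change of -0.45 (adjusted p = 0.0225) that did not pass the size threshold.

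The regulatory factor X (RFX) proteins bind the X-box, and RFX2 and RFX3 are on the motile cilium list. X-box matches (GTTNCC and GGNAAC with 2 bases of any kind between them, both strands) were read from the 250 bases before the first start that RefSeq lists for each gene, in build GRCh38.p14. They are shown because they lie in promoters of genes of this programme. CFAP45, ENKUR and SPAG16 rose and DNAH1, an inner dynein heavy chain, was not called. Of 42 tested motile cilium genes with a promoter 4 held a match (9.52%), against 0.41% of all 27305 promoters. Capitals mark the whole match.
CFAP45, chr1:159900171-159900184, minus strand: GTTGCCAAGGTAAC
ENKUR, chr10:25016162-25016175, minus strand: GTTTCCACGGCAAC
SPAG16, chr2:213284280-213284293, plus strand: GTTGCCACGGTAAC
DNAH1, chr3:52316214-52316227, plus strand: GTTGCCATGGCAAC

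Interferon-stimulated and antigen-presentation genes rose across most of their list. Of 44 listed genes 39 were tested, 35 rose and none fell (median 2.60), and 15 of 19 remaining members rose (78.9%). The summed level of the list was 653 to 740 TPM in the ePP libraries and 3635 to 3660 TPM in ePP-β. IFI6, an interferon-inducible protein, was at 11, 11.5, 18.2 and 18.1 TPM in ePPs and at 845 and 834 TPM in ePP-β. IFIH1, a cytosolic sensor of double-stranded RNA, was at 0.182, 0.0132, 0.433 and 0.23 TPM in ePPs and at 38.2 and 32.5 TPM in ePP-β. HLA-B, a heavy chain of MHC class I, was at 4.6, 4.85, 9.03 and 9.32 TPM in ePPs and at 210 and 247 TPM in ePP-β. The ePP-β libraries agreed closely while the P21 libraries lay somewhat above P9 for IFI6 and HLA-B, and the log2 fold changes were 5.78 ± 0.07, 4.91 ± 0.17 and 4.91 ± 0.10 (adjusted p = 9.78e-07, 1.17e-05 and 3.67e-06). B2M, the shared light chain of class I, rose from 327 ± 5.32 TPM to 901 ± 26.5 TPM. HLA genes are close paralogs, so the division of reads among them is uncertain.

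The interferon-stimulated response element (searched as GAAA, 2 bases of any kind and GAAA, on both strands of the 250 bases before the start) occurred in 3.07% of all promoters. It was in 21 of the 32 tested list members with a promoter (65.6%), of which 19 rose and 2, IFIT5 and PSMB10, were not called. The promoters of IFI6, IFIH1 and B2M are shown as examples, with the matches in capitals. IFI6 and IFIH1 held 3 matches each, the most in the list, and B2M held 2. These genes rose by 5.78, 4.91 and 1.46 against a list median of 2.60, so they do not stand for the list. A match is a run of letters and not evidence of binding.
IFI6, chr1:27672193-27672442, minus strand: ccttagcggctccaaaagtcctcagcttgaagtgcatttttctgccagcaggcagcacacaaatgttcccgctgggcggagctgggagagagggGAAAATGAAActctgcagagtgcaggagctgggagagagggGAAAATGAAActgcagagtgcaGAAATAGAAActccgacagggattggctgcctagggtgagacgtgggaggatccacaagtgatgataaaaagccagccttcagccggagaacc
IFIH1, chr2:162318685-162318934, minus strand: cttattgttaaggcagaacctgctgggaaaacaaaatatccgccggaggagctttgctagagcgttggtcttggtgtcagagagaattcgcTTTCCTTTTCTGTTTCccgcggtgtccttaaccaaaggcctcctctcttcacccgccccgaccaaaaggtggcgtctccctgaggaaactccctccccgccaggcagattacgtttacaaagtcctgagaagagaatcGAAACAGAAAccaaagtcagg
B2M, chr15:44711267-44711516, plus strand: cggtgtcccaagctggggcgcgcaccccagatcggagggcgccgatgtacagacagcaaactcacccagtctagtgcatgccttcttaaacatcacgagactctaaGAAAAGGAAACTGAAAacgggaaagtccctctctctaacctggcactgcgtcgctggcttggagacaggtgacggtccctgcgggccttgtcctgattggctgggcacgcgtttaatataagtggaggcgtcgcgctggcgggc

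Liver-type secreted proteins were gained strongly although most were already detected in ePPs. Of 45 listed genes 37 were tested, 32 rose and 1 fell (median 3.10), and 23 of 28 remaining members rose (82.1%). The summed level was 3283 to 4046 TPM in ePPs and 24555 to 27605 TPM in ePP-β, and TTR, the thyroid hormone and retinol carrier that islet cells also make, was at 13015 and 15556 TPM of this. APOC3, an apolipoprotein of triglyceride-rich particles, was at 0.809, 0.764, 0.147 and 0.295 TPM in ePPs and at 435 and 506 TPM in ePP-β. APOA4, an apolipoprotein of liver and gut, was at 0.631, 0.259, 0.651 and 0.755 TPM in ePPs and at 409 and 511 TPM in ePP-β. Their rises were alike, by 8.32 and 8.20 log2 units. ALB, serum albumin, rose less, from 0.333 to 0.891 TPM in ePPs to 54.9 and 42.2 TPM, and AFP, the fetal counterpart of albumin, from 99.8 ± 12.2 to 762 ± 25.5 TPM. F5, a clotting factor, was the member that fell (-1.37).

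Gut epithelial genes rose while CDX2 fell. Of 43 gastric and intestinal genes 27 were tested, 20 rose and 5 fell, with a median of 2.23, and 16 of 23 remaining members rose (69.6%). MUC13, a membrane mucin, was at 13.6, 12.2, 16.9 and 17.5 TPM in ePPs and at 496 and 521 TPM in ePP-β. TFF3, a peptide secreted by goblet cells, was at 1.22, 0.52, 0.167 and 0.259 TPM in ePPs and at 57.4 and 64.5 TPM in ePP-β. CDX2, the transcription factor that defines intestinal epithelium, was at 95, 94.2, 94.6 and 95.4 TPM in ePPs and at 17.4 and 15.3 TPM in ePP-β. The factor thus ran against the epithelial products, with log2 fold changes of -2.46 ± 0.08 for CDX2, 5.00 ± 0.08 for MUC13 and 5.37 ± 0.20 for TFF3. FABP2, an enterocyte fatty acid carrier, rose by 3.98, and TFF1, of gastric surface cells, by 3.22. VSIG1, a gastric junction protein, and LGALS3, a galectin, fell by 2.29 and 2.02.

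Exocrine markers were mixed. Of 28 acinar genes 12 were tested and 8 rose, with a summed level of 34.5 to 44 TPM in ePPs and 220 to 438 TPM in ePP-β. The trypsinogen gene PRSS2 rose to 34.5 and 50.5 TPM and CPA1, a carboxypeptidase of acinar cells, to 15.2 and 17.6 TPM, both from 0.109 TPM or less. SPINK1, a trypsin inhibitor, was at 102 and 302 TPM in ePP-β, so the libraries disagreed on its level. PTF1A, the defining acinar transcription factor, stayed at 0.202 and 0.5 TPM. Only 2 of the 6 remaining acinar members rose, with a median of 0.07 against 2.42 for all tested members. With the tested genes held, 8 acinar genes rose without either ePP-β library. Of 16 tested ductal genes 6 rose and 6 fell (median 0.20), and 5 of 15 remaining members rose. KRT19, a ductal keratin, was at 457 ± 42.6 TPM in ePPs and 559 ± 42.1 TPM in ePP-β and was not called, SPP1, osteopontin, rose by 1.45, and CA2, a carbonic anhydrase, fell by 1.27.

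Metallothioneins, small proteins that bind zinc, appeared in ePP-β. MT1X was listed at 0 in 3 of the 4 ePP libraries, was at 0.0156 TPM in the fourth, and was at 49.3 and 62.9 TPM in ePP-β. MT1F was listed at 0 in 3 ePP libraries, was at 0.186 TPM in the fourth, and was at 56.7 and 55.2 TPM in ePP-β. MT2A was at 0.189 and 0.115 TPM in 2 ePP libraries, was listed at 0 in the others, and was at 19.5 and 34.7 TPM in ePP-β. The ePP libraries were thus at or near 0 for all of them, and adjusted p was between 5.91e-06 and 4.54e-05. Metallothionein genes are near-identical copies, so which copy the reads belong to is uncertain. Of 22 tested genes of the metallothionein and zinc list 11 rose and 1 fell (median 1.12), and 4 of 15 remaining members rose.

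Zinc transporters moved beside them. SLC30A1, the plasma membrane zinc exporter that responds to zinc, was at 8.53, 7.31, 7.98 and 9.35 TPM in ePPs and at 32.5 and 30.6 TPM in ePP-β. SLC39A10, a zinc importer, was at 143, 143, 162 and 169 TPM in ePPs and at 29.2 and 27.9 TPM in ePP-β. The exporter rose by 1.81 and the importer fell by 2.39. The metal response element core (TGCACNC or TGCGCNC, both strands), the site of the zinc sensor MTF1, occurred in 24.7% of all promoters and in 7 of 16 tested list members with a promoter. Of these 7 members, 4 rose and 3 were not called. MT1X held 4 and MT2A 7 matches in the 250 bases before the start, the most in the list. These promoters are shown as examples with the matches in capitals. MT1F, which also appeared from near 0, is not shown.
MT1X, chr16:56682220-56682469, plus strand: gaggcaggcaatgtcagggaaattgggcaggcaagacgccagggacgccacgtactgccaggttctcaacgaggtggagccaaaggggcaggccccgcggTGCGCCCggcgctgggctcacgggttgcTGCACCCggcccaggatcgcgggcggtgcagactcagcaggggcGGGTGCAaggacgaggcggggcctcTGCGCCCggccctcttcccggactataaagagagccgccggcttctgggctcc
MT2A, chr16:56608334-56608583, plus strand: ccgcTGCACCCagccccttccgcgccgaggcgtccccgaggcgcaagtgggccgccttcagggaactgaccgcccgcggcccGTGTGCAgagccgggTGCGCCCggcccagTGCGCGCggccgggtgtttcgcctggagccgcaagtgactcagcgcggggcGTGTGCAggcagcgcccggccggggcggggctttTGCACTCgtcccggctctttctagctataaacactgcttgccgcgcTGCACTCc

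Thyroid hormone and cAMP genes rose at about the background share of 9.51% once members that passed through ePP-β alone were set aside. Of 16 tested thyroid hormone genes 7 rose and none fell. However, 6 of those tested had passed through ePP-β alone, and 1 of the remaining 10 rose (10%). DIO1, a deiodinase, was at 0.0563 TPM or less in ePPs and at 10.9 and 11.8 TPM in ePP-β. KLF9, a factor induced by thyroid hormone, was at 1.52, 1.74, 1.7 and 2.12 TPM in ePPs and at 5.96 and 6.57 TPM in ePP-β. CPT1A, which admits fatty acids to mitochondria, rose from 0.153 ± 0.0258 to 18.4 ± 1.61 TPM. Of 43 tested cAMP genes 12 rose and 4 fell (9.3%, against 9.86% of all tested genes), and 4 of 35 remaining members rose (11.4%). GNAS, the stimulatory G protein subunit, was at 782 to 998 TPM in ePPs and at 2522 and 2943 TPM in ePP-β. GLP1R, the incretin receptor, rose by 2.53 and the adenylyl cyclase ADCY2 by 3.58, whereas CREM, a cAMP-responsive factor, was at 29.3 ± 6.23 and 29.7 ± 7.57 TPM and was not called (adjusted p = 0.952). The kinase SIK2 and the kinase subunit PRKAR2B fell by 1.39 and 1.44.

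Many glycolytic and hypoxia-associated genes rose, and here the ePP-β libraries differed from each other. Of 35 tested glycolysis genes 19 rose and 4 fell (median 1.34), and 14 of 30 remaining members rose. Of 30 hypoxia-associated genes, all tested, 18 rose and 1 fell (median 1.25), and 15 of 27 remaining members rose. The summed hypoxia list was 979 to 1232 TPM in ePPs and 2447 to 3392 TPM in ePP-β, and 28 of 30 members were higher in ePP-β replicate 2 than in replicate 1, by a median of 0.54 log2 units against 0.02 over all tested genes. EGLN3, an oxygen-dependent prolyl hydroxylase induced in hypoxia, was at 2.05, 1.62, 1.98 and 2.2 TPM in ePPs and at 38.3 and 50 TPM in ePP-β. SLC2A3, a glucose transporter, was at 0.97, 0.534, 0.494 and 0.392 TPM in ePPs and at 18.8 and 30 TPM in ePP-β. VEGFA, the vascular growth factor, was at 51.4, 63.9, 131 and 152 TPM in ePPs and at 202 and 380 TPM in ePP-β. EGLN3 and SLC2A3 separated the groups widely, by 3.92 ± 0.17 and 3.97 ± 0.24 log2 units, while VEGFA rose by 1.61 ± 0.25 and lost its call against ePP-P21 alone. With the tested genes held, 20 and 15 hypoxia genes rose without ePP-β replicates 1 and 2.

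Lactate genes of the glycolysis list moved in both directions. LDHB, a lactate dehydrogenase subunit, was at 2445, 2419, 2119 and 2192 TPM in ePPs and at 499 and 453 TPM in ePP-β. SLC16A1 and SLC16A3, both lactate transporters, were at 184 ± 1.62 and 2.18 ± 0.615 TPM in ePPs and at 68.8 ± 5.89 and 59.5 ± 24.6 TPM in ePP-β. SLC16A1 thus fell by 1.41 as SLC16A3 rose by 4.21. HK2, a high-affinity hexokinase, was at 33.9, 33.1, 25.2 and 28.9 TPM in ePPs and at 3.49 and 14.4 TPM in ePP-β, a fall of 1.90 ± 0.46 (adjusted p = 0.0139) with a wide gap between the ePP-β libraries, and the call was lost without the filter.

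Oxidative phosphorylation changed little in the nuclear genes. Of 77 tested subunits of complexes I to V, NDUFC1 of complex I rose by 1.44 and SDHA of complex II fell by 1.13, and the median of 0.13 vanished with median centring. NDUFC1 lost its call without either ePP-β library, with the tested genes held. Of 77 mitochondrial ribosome genes none rose and MRPS6 fell, with a median of -0.16.

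TGFβ, antioxidant and lysosome genes rose at higher shares than all tested genes. Of 31 tested TGFβ pathway genes 15 rose and 5 fell, and 7 of 22 remaining members rose, with a median of 0.72 that was -0.03 with a filter of 5 TPM and -0.21 over the remaining members. ACVR1C, an activin and nodal receptor of islets, was at 0.797, 0.749, 1.24 and 1.31 TPM in ePPs and at 145 and 129 TPM in ePP-β. TGFB2, a ligand, and INHA, an inhibin subunit, rose by 3.75 and 4.23, and the repressors TGIF1, TGIF2 and SKI fell by 1.58, 1.31 and 1.36. Of 45 tested antioxidant genes 15 rose and 3 fell, and 12 of 42 remaining members rose. GPX7, a peroxidase of the endoplasmic reticulum, rose by 3.51 and the glutathione transferase GSTA1 by 2.45, while PRDX1, an abundant peroxiredoxin, fell from 1052 ± 62.3 to 324 ± 26.8 TPM. NQO1, a standard target of NRF2, was at 14.8 ± 5.97 TPM in ePPs and 16 ± 2.33 TPM in ePP-β (adjusted p = 0.302). Of 46 tested lysosome genes 12 rose and 3 fell (10 of 44 remaining members rose), with CTSZ up from 63 ± 1.37 to 429 ± 29.7 TPM and CTSC down from 280 ± 35.2 to 70 ± 4.9 TPM, both cysteine cathepsins.

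Growth factor feedback genes were among the losses. Of 48 EGF and FGF pathway genes 43 were tested, 17 fell and 5 rose, with a median of -0.76, and a single one of 38 remaining members rose (2.63%). DUSP6, the phosphatase that ERK signalling induces against itself, was at 245, 264, 191 and 275 TPM in ePPs and at 11.3 and 15.5 TPM in ePP-β. SPRY2, a sprouty inhibitor with the same role, was at 239, 257, 182 and 251 TPM in ePPs and at 20.9 and 24.5 TPM in ePP-β. SPRY4, its relative, was at 23.4, 23.2, 17.2 and 23.9 TPM in ePPs and at 2.61 and 2.49 TPM in ePP-β. For all of them the lowest ePP library was that of ePP-P21 replicate 1. The log2 fold changes were -4.09 ± 0.18, -3.29 ± 0.14 and -2.68 ± 0.16. EGFR, the EGF receptor, was at 15.6 ± 1.07 TPM in ePPs and 9.66 ± 0.0874 TPM in ePP-β (-0.64, adjusted p = 0.0039), and ETV5, an ERK-induced factor, moved by -0.87 (adjusted p = 0.00137), so neither passed the size threshold. AREG, an EGF receptor ligand, rose from 2.89, 3.27, 10.7 and 11 TPM to 88.5 and 101 TPM.

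Some BMP targets fell, of which ID1 and ID3 had the highest levels. Of 34 tested BMP genes 9 fell and 5 rose (median -0.36), 3 of 31 remaining members rose, and the summed level of the list was 2567 to 3458 TPM in ePPs and 703 to 725 TPM in ePP-β. ID3, an inhibitor of bHLH factors induced by BMP, was at 969, 1112, 1193 and 1231 TPM in ePPs and at 67.7 and 60.6 TPM in ePP-β. SMAD6, the feedback SMAD, was at 14.4, 14, 19.2 and 22.4 TPM in ePPs and at 1.46 and 1.35 TPM in ePP-β. The groups stood far apart for both genes (log2 fold changes of -4.11 ± 0.08 and -2.92 ± 0.14), and ID1 fell by 4.60. The ligand BMP4 and the BMP antagonist NBL1 rose by 1.42 and 3.10.

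Notch genes moved unequally. Of 37 tested, 9 fell and 6 rose, with a median of -0.24, and 5 of 35 remaining members rose, with a median of -0.27. NOTCH2, a receptor, was at 48.7, 49, 50.8 and 56.5 TPM in ePPs and at 7.41 and 2.42 TPM in ePP-β. HEY1, a Notch target, was at 47.7, 50.9, 38.3 and 48.6 TPM in ePPs and at 11.5 and 8.92 TPM in ePP-β. HES1, the best known Notch target, was at 88.4, 90.5, 69.9 and 103 TPM in ePPs and at 54.7 and 50.7 TPM in ePP-β. HES1 moved by -0.72 ± 0.15 (adjusted p = 0.00901) and did not pass, while HEY1 fell by 2.08 ± 0.15 and NOTCH2 by 3.28 ± 0.34. The ligand JAG1 fell from 184 ± 35.6 to 41.5 ± 2.71 TPM and the HES family gene HES6 by 2.05 on the log2 scale. DLL4, another ligand, rose from 1.49 ± 0.642 to 28.8 ± 1.16 TPM, and DLK1, a Notch-like imprinted protein, from 10.4 ± 2.77 to 329 ± 4.58 TPM.

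Wnt and YAP genes also had more falls than rises. Of 35 tested Wnt genes 14 fell and 9 rose, and 2 of 27 remaining members rose (7.41%). The Wnt receptor FZD5 was at 176, 184, 208 and 232 TPM in ePPs and at 20.5 and 16.6 TPM in ePP-β. FZD7, a related receptor, and SFRP5, a secreted inhibitor, had log2 fold changes of -2.81 and -4.67, while APCDD1, an inhibitor, and WNT9A, a ligand, rose by 4.42 and 3.66. SMO, the Hedgehog transducer, fell by 1.55 and was the only one of 12 tested Hedgehog genes to fall (8.33%, below the background), with 1 that rose, which was not among the 10 remaining members. Of 29 tested YAP genes 10 fell and 2 rose, with a median of -0.72. AMOT, a scaffold that binds YAP, was at 43.3, 42.3, 64.8 and 63.1 TPM in ePPs and at 8.04 and 6.87 TPM in ePP-β. The YAP targets CCN1 and CCN2 were at 25.8 ± 5.6 and 47.5 ± 6.44 TPM in ePPs and at 17 ± 0.246 and 32.2 ± 2.08 TPM in ePP-β, differences of -0.55 and -0.54 that did not pass. IGFBP3, an IGF carrier on the same list, rose against it from 13.7 to 18.2 TPM to 671 and 951 TPM.

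**Figure D3:**
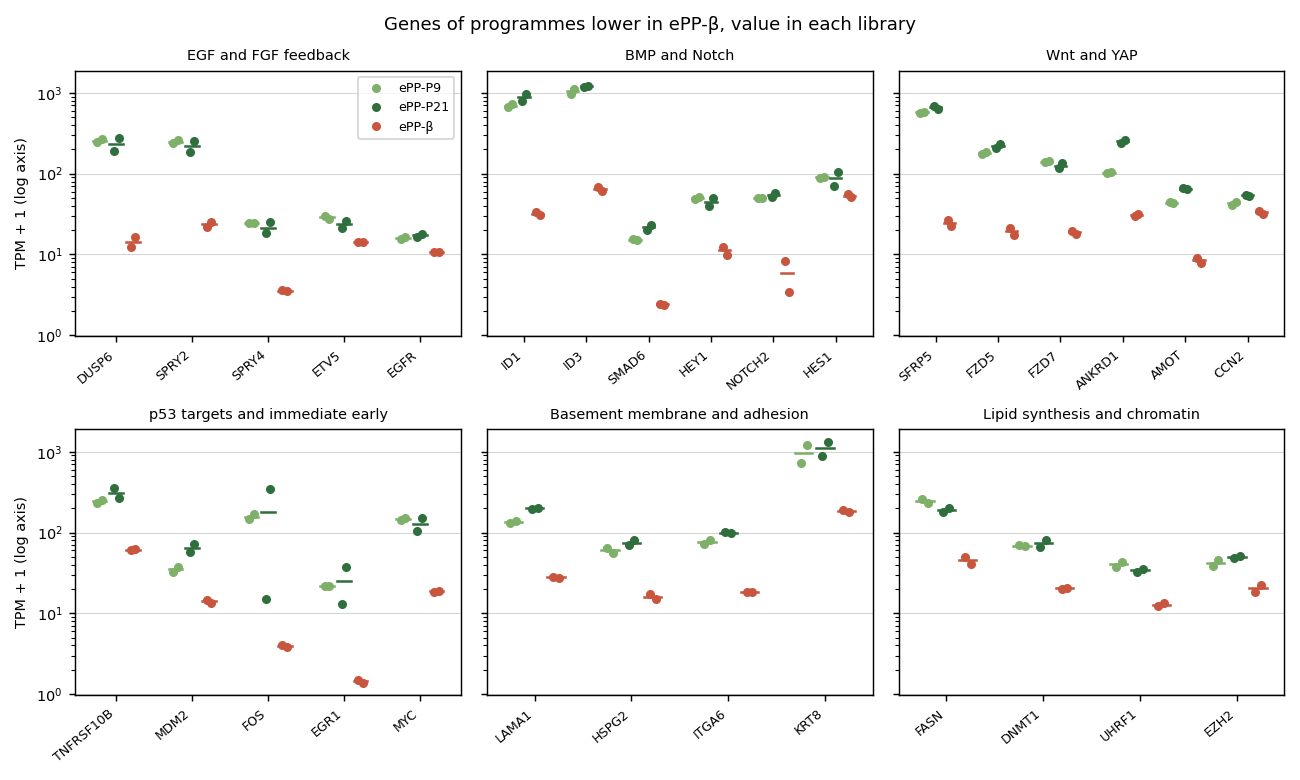
TPM + 1 on a log axis in each of the 6 libraries for genes of 6 programmes, with points for libraries and bars for group means (ePP-P9 light green, ePP-P21 dark green, ePP-β red, n = 2 each). The ePP-β points lie below all ePP points for every gene drawn, though ETV5, EGFR, HES1 and CCN2 fell short of the size threshold. Lack of overlap was required of the drawn genes that were not list anchors. FOS spreads from 14 to 344 TPM among the ePP libraries.

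Many p53 targets fell. Of 32 listed genes, all tested and all above the filter in ePPs, 14 fell and 2 rose, with a median of -0.86. TNFRSF10B, a TRAIL death receptor, was at 234, 254, 353 and 268 TPM in ePPs and at 59.4 and 61 TPM in ePP-β. MDM2, the ligase that p53 induces against itself, was at 31.8, 36.1, 57.2 and 70.3 TPM in ePPs and at 13.8 and 12.6 TPM in ePP-β. Both ePP-P21 libraries lay above both ePP-P9 libraries for MDM2, and all lay above ePP-β (log2 fold changes of -1.74 ± 0.12 for MDM2 and -2.17 ± 0.12 for TNFRSF10B). The kinase PLK3 fell by 1.72. GDF15, a stress-induced cytokine, rose from 25.8 ± 5.43 to 79.4 ± 4.99 TPM, and TP53INP1, an autophagy protein, by 1.01, a call that was lost against ePP-P21 alone, with median centring and without ePP-P9 replicate 1, ePP-P21 replicate 1 or ePP-β replicate 2.

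Some immediate early genes fell, from levels that varied among ePP libraries. Of 22 tested, 7 fell and 1 rose, with a median of -0.60, and none of 21 remaining members rose. EGR1, a zinc finger factor induced within minutes by growth factors, was at 20.5, 20.5, 11.9 and 36.5 TPM in ePPs and at 0.483 and 0.39 TPM in ePP-β. FOS, of the AP-1 factor, was at 145, 168, 14 and 344 TPM in ePPs and at 3.11 and 2.85 TPM in ePP-β. The ePP-P21 replicates disagreed most, and for FOS the SE was 1.14 on a log2 fold change of -4.74 (adjusted p = 0.0139), a call lost without the filter and, with the tested genes held, without either ePP-β library. MYC, a growth regulator and a gene that BET inhibitors lower in many cells, was at 140, 151, 102 and 152 TPM in ePPs, which were kept with I-BET151, and at 17.6 and 18 TPM in ePP-β. Of 24 tested BET response genes 4 rose and 5 fell, and 2 fell against ePP-P9 alone. HEXIM1, a P-TEFb inhibitor that BET inhibitors induce, fell by 1.43, and SERPINI1, a neuronal serpin, rose by 2.70.

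Part of the basement membrane and integrin genes fell. Of 23 tested basement membrane genes 9 fell and 3 rose, with a median of -0.96, and 1 of 21 remaining members rose. Of 20 tested integrin genes 5 fell and 3 rose (median -0.46), and 1 of 18 remaining members rose. LAMA1, the laminin chain of early epithelium, was at 131, 138, 196 and 201 TPM in ePPs and at 27.5 and 26.2 TPM in ePP-β. ITGA6, a laminin receptor, was at 72, 78.8, 100 and 97.7 TPM in ePPs and at 17.4 and 17.4 TPM in ePP-β. The receptor and its ligand fell by similar steps of 2.25 and 2.56 log2 units. Both were higher in the ePP-P21 libraries, differences between passages that did not pass (limma, adjusted p = 0.116 and 0.0778). The proteoglycan HSPG2 and the linker NID1 fell by 2.06 and 2.17. LAMB3, a laminin chain, rose instead, from 0.0354 ± 0.0312 to 4.98 ± 0.684 TPM. LAMC1, the chain shared by most laminins, moved by -0.96 and was not called.

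Epithelial junction and keratin genes were redistributed. Of 47 tested, 16 rose and 7 fell (median 0.73), and 8 of 38 remaining members rose (median 0.16). KRT8, a keratin of simple epithelia, was at 720, 1224, 881 and 1337 TPM in ePPs and at 191 and 177 TPM in ePP-β. Its partner KRT18 fell in parallel, by 1.71 against 2.45, as did CDH2, N-cadherin, by 1.59. CDH1, E-cadherin, was at 12.2 ± 1.35 TPM in ePPs and 25.7 ± 0.604 TPM in ePP-β, a log2 fold change of 1.02 that lost its call with median centring, against ePP-P21 alone, without ePP-β replicate 1 and without ePP-P21 replicate 2. VIL1, villin of microvilli, and the actin bundler ESPN rose by 2.61 and 2.81.

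Collagen and mesenchymal genes showed no common direction. Of 33 tested collagen and matrix genes 11 rose and 11 fell, with a median of -0.24 that turned to 0.07 against ePP-P9 alone. Of 26 remaining members 5 rose, with a median of -0.64. COL5A2 rose from 18.4 ± 4.48 to 170 ± 12.7 TPM, and COL2A1 fell from 133 ± 2.42 to 17.2 ± 2.33 TPM and the proteoglycan VCAN from 89 ± 19.5 to 14.5 ± 0.796 TPM. COL1A1 and COL3A1, the main collagens of fibroblasts, were at 10.6 ± 3.54 and 27.9 ± 5.43 TPM in ePPs and at 7.26 ± 1.93 and 26.2 ± 4.89 TPM in ePP-β and were not called (adjusted p = 0.189 and 0.727). VIM, vimentin, fell from 1509 ± 179 to 480 ± 37.5 TPM. Of 15 tested mesenchymal genes 5 fell and 2 rose (1 of 13 remaining members), and 3 fell without either ePP-β library with the tested genes held. How feeder cells were kept out of the RNA was not stated, so the part of ePPs and of feeder cells in these values cannot be told apart.

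A few cholesterol synthesis genes fell and lipid genes moved in both directions. Of 28 cholesterol synthesis genes, all tested, 5 fell and none rose, with a median of -0.69, and without ePP-β replicate 1 8 fell. FASN, fatty acid synthase, was at 257, 230, 180 and 198 TPM in ePPs and at 49.4 and 39.4 TPM in ePP-β. FASN had a log2 fold change of -2.25, and HMGCS1, of the sterol pathway itself, moved by -0.53 without passing. Of 41 tested fatty acid and lipid genes 11 rose and 7 fell (median -0.08), and 8 of 38 remaining members rose. PLIN2, which coats lipid droplets, rose from 29.2 ± 5.16 to 174 ± 16.6 TPM and the acyl-CoA synthetase ACSL5 from 0.498 ± 0.311 to 55.8 ± 6.5 TPM, and the elongase ELOVL6 and the lipase PNPLA3 fell by 1.33 and 2.47.

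Amino acid and retinoid genes had members in both directions. Of 36 tested ATF4 and amino acid genes 8 rose and 5 fell, and 6 of 34 remaining members rose. VLDLR, a lipoprotein receptor, rose by 6.74 and the stress genes CHAC1 and TRIB3 by 2.83 and 2.62, while the glutamine transporter SLC1A5, the transsulfuration enzyme CBS and the serine synthesis enzyme PHGDH fell by 1.61, 1.61 and 1.17. Of 19 tested retinoic acid genes 8 rose and 2 fell, and 5 of 14 remaining members rose. ALDH1A2, which makes retinoic acid, was at 116, 117, 111 and 129 TPM in ePPs and at 4.03 and 5.19 TPM in ePP-β. RBP2, a retinol carrier of enterocytes, went the opposite way, from 5.62 ± 0.618 to 199 ± 24.6 TPM, and CYP26B1, which degrades retinoic acid, fell by 2.17.

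Most ribosome and nuclear transport genes were not called, and none rose. Of 81 ribosome biogenesis genes, all tested, 14 fell and none rose, with a median of -0.59, and of 60 nuclear pore and transport genes 9 fell and none rose, with a median of -0.66. Of 78 ribosomal protein genes 4 fell (5.13%, below the background) and none rose (median -0.50), and 1 fell with quantile normalization. RRP12, an export factor of ribosomal subunits, was at 34.6, 36.3, 34.5 and 40.1 TPM in ePPs and at 13.1 and 11.8 TPM in ePP-β. RCC1, which loads RAN with GTP, was at 64.2, 55.7, 34.3 and 42.2 TPM in ePPs and at 12.1 and 6.17 TPM in ePP-β. CSE1L, an exporter of importins, fell by 1.46, the nucleolar protein NCL by 1.12 and the ribosomal protein RPS2 by 1.24. NCL lost its call without ePP-P9 replicate 2.

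Chromatin and developmental regulators changed in part. Of 46 tested DNA methylation and chromatin genes 8 fell and 6 rose, with a median of -0.38, and 4 of 44 remaining members rose. Without ePP-β replicate 2, with the tested genes held, 3 rose. DNMT1, the maintenance methyltransferase, was at 68.5, 67.4, 65.8 and 79.4 TPM in ePPs and at 18.9 and 19.8 TPM in ePP-β. Its partner UHRF1 was at 36.7, 42, 31.7 and 34.4 TPM in ePPs and at 11.2 and 12.3 TPM in ePP-β, and EZH2, the Polycomb methyltransferase, fell by 1.16. These are also genes of dividing cells. ACTL6A and ACTL6B, alternative subunits of the BAF remodelling complex in progenitors and neurons, were at 113 ± 5.47 TPM and listed at 0 in ePPs and at 58.9 ± 0.223 and 6.68 ± 0.339 TPM in ePP-β. ACTL6B was called and ACTL6A, at -0.93, was not. SMARCA2, an ATPase of the same complex, rose from 4.3, 1.07, 4.11 and 5.15 TPM to 65.9 and 60.3 TPM.

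Of 25 tested oncofetal and imprinted genes 5 fell and 3 rose, and 2 of 24 remaining members rose. HMGA2, a chromatin protein of embryonic cells, was at 277, 280, 203 and 248 TPM in ePPs and at 86.3 and 75.3 TPM in ePP-β, and LIN28A, which blocks let-7, fell by 2.19. LIN28B and IGF2BP1 moved by -0.53 and -0.97 and were not called. Of 22 tested HOX genes 5 rose and 6 fell (3 of 20 remaining members rose), with HOXB8 up from 3.01 ± 0.991 to 10.2 ± 1.72 TPM and HOXA3 and HOXA5 down by 1.74 and 1.70. HOXB3 differed between the ePP-β libraries, at 1.9 and 14.1 TPM, and its fall of 2.42 ± 0.61 was lost without the filter.

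Outside all lists, the 12 largest rises and falls among protein-coding genes were taken by the same rule. FXYD2, a sodium pump subunit known as a β cell surface marker, was at 0.0409, 0.784, 0.323 and 1.64 TPM in ePPs and at 599 and 621 TPM in ePP-β. AGT, angiotensinogen, was at 1.5, 1.26, 2.14 and 2.2 TPM in ePPs and at 977 and 804 TPM in ePP-β. CALB2, the calcium buffer calretinin, was listed at 0 in both ePP-P9 libraries, was at 0.0733 TPM or less in ePP-P21, and was at 263 and 258 TPM in ePP-β. These genes rose by 8.58, 8.34 and 8.00 log2 units. The other rises were those of BTBD17, HEPACAM2, the vitamin D carrier GC, the cochaperone DNAJC12, the lysophosphatidic acid enzyme ENPP2, the G protein regulator RGS4, the calcium pump ATP2A3, the cytokine IL32 and the chemokine CXCL12, by 6.79 to 8.55.

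Among the falls outside the lists, IGFBP6, an IGF carrier, was at 84.5, 82.4, 80.7 and 72.2 TPM in ePPs and at 0.971 and 0.611 TPM in ePP-β. PKDCC, a secreted kinase of matrix proteins, was at 832, 963, 1091 and 1054 TPM in ePPs and at 93.8 and 117 TPM in ePP-β. Their log2 fold changes were -5.50 ± 0.12 and -3.21 ± 0.11, and lack of overlap was part of the rule that picked them. FRAT2, a GSK3-binding activator of Wnt signalling, fell by 3.71, SHISA2, an inhibitor of Wnt and FGF receptors, by 3.67, and the channel gene KCNJ13 by 3.25. Further falls were those of ADAMTS7, PLGRKT, EFR3B, TMEM100, H2AC20 and SEL1L3, with log2 fold changes from -3.98 to -3.14.

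Markers of cell types other than endocrine and progenitor cells were checked beside these programmes. The endothelial markers PECAM1 and CDH5 were at 0.0787 TPM or less in all 6 libraries, and 15 of 18 endothelial genes were under 1 TPM in all of them. FLT1, a VEGF receptor on that list, was at 50.4, 52.1, 59.7 and 59.2 TPM in ePPs and at 0.0649 and 0.0822 TPM in ePP-β, a fall of 5.71. CLDN5, on the endothelial and the epithelial junction lists, rose by 3.12, to 17 and 5.82 TPM in ePP-β. PTPRC, the pan-leukocyte marker, was at 0.0137 TPM or less, so the rises of 5 of 6 tested immune-list genes (3 of 4 remaining members) came without it. These were CD68, a lysosomal protein, CD74, the class II chaperone, AIF1, LYZ and HLA-DRA, and AIF1, an actin-binding protein of macrophages, reached 75.6 and 73.5 TPM. The summed immune list was 21.9 to 28.8 TPM in ePPs and 355 to 375 TPM in ePP-β. Of 7 tested Schwann and neural crest genes 5 rose (3 of 4 remaining members), and SOX10, the defining factor, was at 0.00397 TPM or listed at 0 in ePPs and at 1.54 and 0.815 TPM in ePP-β. The summed list was 39.3 to 42.7 TPM in ePPs and 123 to 131 TPM in ePP-β, and the part of such cells in the neuronal rises was not tested. POU5F1, which defines pluripotency, was at 0.12 TPM or less in each of the 6 libraries, while L1TD1, expressed in pluripotent cells too, fell from 70.5 ± 8.57 to 7.68 ± 0.354 TPM. Of 7 tested pluripotency genes 4 fell and 2 rose, and their median of -1.23 turned to 0.03 without the filter.

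A smaller share of losses than of gains was called from both passages as the start, and whether losses depend more on passage was not tested. From ePP-P9 alone 3474 genes were higher and 1536 lower, and from ePP-P21 alone 3092 and 2262. The median of all tested genes was 0.07 from ePP-P9 and -0.11 from ePP-P21. These contrasts share the ePP-β libraries. Of the 3237 higher genes 2887 (89.2%) were called from both starts, and of the 1783 lower genes 1298 (72.8%). The lower genes lay nearer the size threshold, with a median log2 fold change of -1.33 against 1.87 for the higher genes. Basement membrane genes had a median of -0.68 from ePP-P9 and -1.23 from ePP-P21, and YAP genes of -0.41 and -0.82, whereas hepatic genes had 3.15 and 3.14 and interferon genes 2.60 and 2.75. Only 2 of all tested genes differed between the passages themselves at an adjusted p under 0.05.

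The same step without expansion was sampled once each, in pancreatic progenitors (PP2) and β-like cells (SC-β) differentiated directly from stem cells, in batch 1. With 1 library a group there is no replicate check and no test. Of 18894 genes at 1 TPM or more in either library, 12.7% were higher and 22.1% lower by more than 1 log2 unit in SC-β. Of the 3237 genes higher in ePP-β, 1328 (41%) were also past 1 in SC-β over PP2 and 204 (6.3%) past -1, and of the 1783 lower genes 998 (56%) were past -1 and 30 (1.68%) past 1. The SC-β minus PP2 medians were 5.00 for granule genes, 0.74 for exocytosis, 1.61 for ion channels, 1.51 for neuroendocrine factors and 1.72 for interferon and MHC genes, against 5.89, 1.76, 2.24, 2.67 and 2.60 in ePP-β. They were 0.06 for neuronal cytoskeleton, -0.74 for axon guidance and -0.65 for neuronal RNA-binding genes, against 1.41, 0.37 and 0.25. All these medians are over members tested in the ePP and ePP-β libraries. Members that passed through ePP-β alone are high there by selection, so the larger ePP-β medians cannot be read as a difference between routes. Over the remaining members the first 5 ePP-β medians were 4.75, 1.04, 0.60, 0.56 and 2.02.

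Further lists differed in size or sign, and some of their genes, but not all, were high in PP2 already. Motile cilium genes had a median of -0.15 in SC-β minus PP2 against 1.34 in ePP-β. FOXJ1 was at 142 TPM in PP2 and 84 TPM in SC-β, and TPPP3 at 14.1 and 240 TPM. Hepatic genes had medians of 0.19 against 3.10, with AFP at 1646 and 1502 TPM in PP2 and SC-β. Of the 37 tested hepatic genes, 16 were past 1 and 10 past -1 in SC-β over PP2. ALB, TTR and APOC3 were higher in SC-β by 5.67, 5.04 and 4.12 log2 units. Gut genes had medians of -0.03 against 2.23, with 8 past 1 and 8 past -1 in SC-β. In PP2, MUC13 was at 0.188 TPM and FABP2 was listed at 0. MT1X was at 13.3 TPM in PP2 and 22.1 TPM in SC-β, both between its ePP and ePP-β levels, and MT2A at 45 and 30 TPM. Glycolysis and hypoxia lists had medians of -0.17 and -0.22 against 1.34 and 1.25. Cholesterol synthesis had the opposite sign, 0.85 against -0.69. The growth factor, BMP and p53 losses were on the same side, with medians of -0.93, -0.64 and -0.61, beside a median of -0.33 over all tested genes. Batch and route differ together between these pairs and cannot be told apart. The fibroblast collagens COL1A1 and COL3A1 were at 310 and 779 TPM in PP2 and at 896 and 1210 TPM in SC-β. Their means in ePPs were 10.6 and 27.9 TPM, and in ePP-β 7.26 and 26.2 TPM. The endothelial marker CDH5 was at 22.3 TPM in PP2 and 0.0348 TPM in SC-β. The part of other cell types in these medians was not tested.

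**Figure D4:**
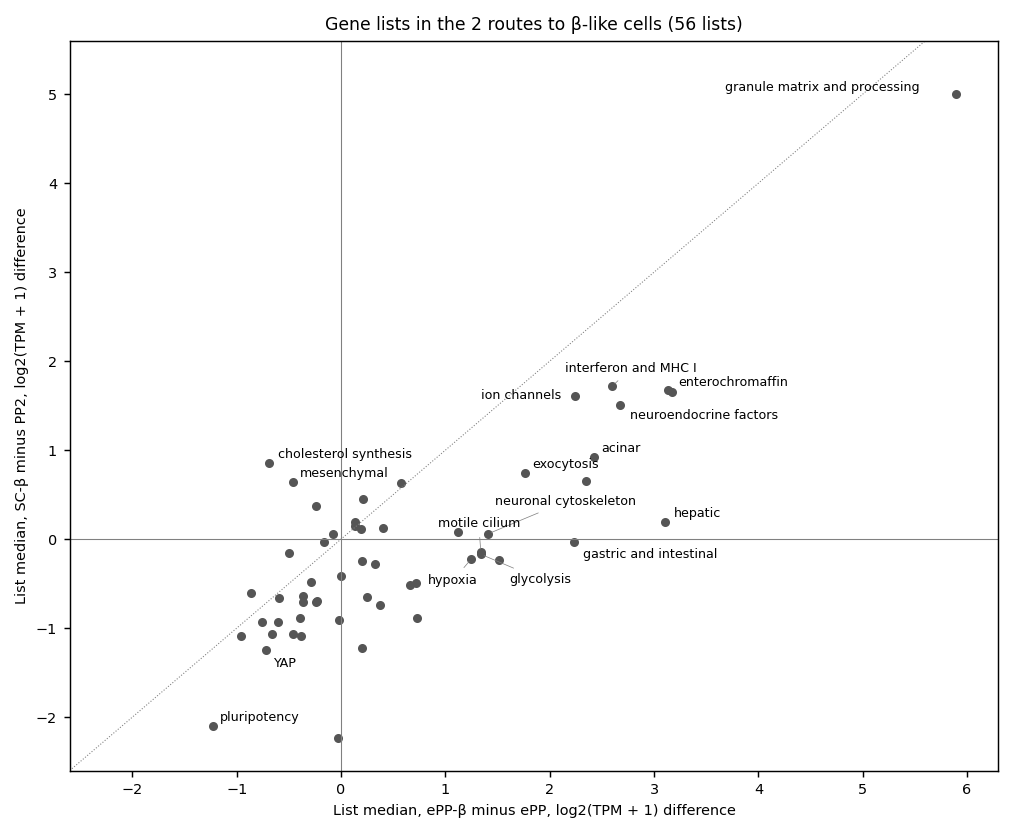
Median log2(TPM + 1) difference of each of 56 gene lists from PP2 to SC-β (vertical axis, 1 library each, batch 1) against that from ePP to ePP-β (horizontal axis, 4 and 2 libraries, batch 2), with points for lists and a dotted line of equality. Granule genes lie near the line at 5.89 and 5.00, hepatic genes lie far below it at 3.10 and 0.19, and cholesterol synthesis lies on opposite sides of 0 at -0.69 and 0.85. Both medians are over members tested in the ePP and ePP-β libraries, which favours high values in ePP-β.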

How the data were processed

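Total RNA from 14 libraries was sequenced. As stated by the study, the authors aligned reads to GRCh38 with HISAT2 2.1.0, assembled transcripts with StringTie and deposited TPM per gene identifier, not scaled across libraries. Neither the annotation release nor strand use is given in the sources used here, so a gene and an overlapping or antisense partner cannot be told apart. The authors ran DESeq2 for their own tests, which needs counts and was not used here.

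Of 60624 identifiers, 60370 matched GENCODE release 44, which gave symbols. Genes with at least 1 TPM in 2 of the 6 libraries were kept and log2(TPM + 1) was fitted with limma 3.58.1 in R 4.3.3 (3 group means, eBayes with trend, two-sided, adjusted over all tested genes). The contrast was ePP-β minus the average of both passage means. The log2(TPM + 1) scale understates changes of low genes. The code was tested on simulated data. Members, gene lists and tests were chosen with earlier results of these data known. Named genes were list anchors, whatever their values, or the up to 3 largest called changes per list and direction with a mean of 10 TPM or more and no overlap, and likewise 12 per direction outside the lists and the Seurat 5.3.0 cell cycle lists. RFX2, RFX3, CFAP45, ENKUR, SPAG16, DNAH1, IFIT5, PSMB10, LYZ and HLA-DRA were named after their values were seen. Promoters are from RefSeq. Some named genes are not reported here.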

Additional observations from a re-analysis of the deposited data

Results flagged for a closer look

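ANKRD1, a muscle ankyrin repeat protein and YAP target, was marked because its fall differed with the passage taken as the start. It was at 99.6 and 105 TPM in ePP-P9, at 242 and 262 TPM in ePP-P21 and at 29 and 30.9 TPM in ePP-β. The log2 fold change of ePP-β was -1.74 from ePP-P9 and -3.03 from ePP-P21, and the passages differed by 1.29 (limma, adjusted p = 0.0468 over all tested genes). The gene fell from both starts.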

How the results depend on the processing

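The count of higher genes was 3237 and that of lower genes 1783. A filter of 5 TPM gave 2058 higher and 1565 lower genes, quantile normalization 2592 and 2866, and an adjusted p alone 5276 and 5105. Leaving out 1 library at a time gave 1623 to 3273 higher and 1656 to 2001 lower genes, with the fewest higher genes without ePP-β replicates 1 and 2 (1765 and 1623), because 1528 called genes then fail the filter by construction. With the tested genes held at 18076, a choice made after seeing the data, those settings gave 3183 and 3002. Pseudocounts of 0.1 and 0.01, no filter, median centring, no trend and either passage as the start kept both counts within 1.5 times. Leaving out 1 library gave acinar list medians of -0.23 (without ePP-β replicate 1, where members drop out by the filter) to 2.42, and 2.51 and 2.30 without either ePP-β library with the tested genes held, and the no-filter setting turned the median of the pluripotency list to 0.03. With the filter of 5 TPM, 21 ion channel, 13 axon guidance, 12 transmitter, 7 cAMP, 6 neuronal RNA-binding and 4 thyroid hormone genes rose, as did 5 collagen, 4 Wnt, 3 BMP, 2 EGF and FGF and 2 HOX genes. Quantile normalization left 3 EGF and FGF genes higher and made 7 cAMP genes lower. Of 277 genes with a call that the naming rule picked, 194 kept it in all 18 settings, 64 kept it where tested but were not tested without an ePP-β library or with the filter of 5 TPM, 19 lost it in at least 1 and none changed direction. Apart from list anchors, the named genes were picked for large changes without overlap, which favours keeping a call. Over all 5020 calls, 4344 were kept with quantile normalization and 4707 with median centring. A replicate block gave 3233 higher and 1799 lower genes and left 4995 of 5020 calls in place. Differences between replicates correlated across groups at -0.00401, 0.032 and 0.0439 across 18076 genes, so the numbers do not pair the libraries. Precision rests on 2 ePP-β libraries of unknown depth, and 1 line, feeder cells and medium limit what the contrast can separate.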
